A study of Homo sapiens with 12 samples.

Results

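The response to ovarian cancer ascites was compared between CAOV3 and TOV21G, a pair of established human ovarian cancer cell lines that the labels give as high grade serous and clear cell. The quantity described is a difference of differences: ascites minus control in TOV21G, minus ascites minus control in CAOV3, on the scale of log2(value + 1). A positive value therefore means that the gene stood higher after ascites, relative to its own control, in TOV21G than in CAOV3. The genes described were those whose mean normalised read count over the 6 libraries of a line was 50 or more in both lines. This held for 11165 of the 19251 listed genes, and all 11165 passed the filter for testing, which left 17616 genes in the fit.

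All 12 libraries entered, 3 in each of 4 groups: CAOV3 control, CAOV3 ascites, TOV21G control and TOV21G ascites. Both lines are labelled wild type and grew in DMEM with 10% fetal bovine serum and antibiotics, in wells holding 1.5 mL. The ascites wells received 150 µL of ovarian cancer ascites, named as 10%, for 16 h, and the control wells are labelled as untreated, with no addition of another fluid described. Each line is a single model of its cancer type, and the source and number of the ascites samples are not given in the labels. Nor do the labels say whether the 3 libraries of a group came from separate cultures, so p-values measure the spread between these libraries, which may be technical.

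Several pathways frame the comparison. Cytokines of the interleukin-6 family bind their own receptors together with the shared subunit gp130 (IL6ST). This activates JAK kinases, which phosphorylate STAT3. STAT3 drives acute-phase genes such as the fibrinogen chains, and it also drives SOCS3, an inhibitor that closes the loop. Separately, the transcription factors SREBF1 and SREBF2 switch on genes for cholesterol and fatty acid synthesis and uptake when sterols in the cell are scarce. INSIG1 holds them in the endoplasmic reticulum when sterols are plentiful. Ascites is the protein- and lipid-rich fluid of the abdominal cavity, and it is known to carry cytokines, growth factors and lipoproteins.

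The libraries held 26697609 to 34491304 reads. Replicates of CAOV3 lay closer together than those of TOV21G, with a median within-group SD of 0.0605 against 0.0836 on the log2 scale. In TOV21G 1 axis carried 69.4% of the within-group variance of these genes, on which control replicate 1 lay beside ascites replicate 2, opposite control replicate 2 and ascites replicate 3. Along with it, the summed value of 7 nuclear-retained RNAs ran from 29339 to 55882 in TOV21G controls and from 38809 to 89615 with ascites, and in CAOV3 from 51864 to 55921. The part of this spread in the results was not tested. The summed value of 8 clear cell markers was 9114 to 9341 in CAOV3 controls and 17807 to 17895 in TOV21G controls, with NAPSA among them low in both (3.51 and 8.11 on average). The 6 serous markers that were listed summed to 622 to 755 in CAOV3 controls and 7611 to 8057 in TOV21G controls, so the sum was not higher in the line labelled serous. PAX8, a Müllerian lineage factor, averaged 19.1 in CAOV3 controls and 7032 in TOV21G controls. It is counted in both sums and made up most of the serous sum in TOV21G. The 2 sums are therefore not independent, and their order between the lines rests largely on this gene. EPCAM, an epithelial surface protein, averaged 735 and 389. Of 18 leukocyte markers 7 were in the list, and their summed value was 352 to 401 in CAOV3 controls, 364 to 427 in CAOV3 ascites, 991 to 1079 in TOV21G controls and 884 to 1058 in TOV21G ascites libraries. Of the leukocyte, mesothelial, fibroblast and endothelial markers only 1, 0, 1 and 2 are among the 11165 genes, and none of these 4 had a called difference in response.

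A difference in response was called for 76 of the 11165 genes, which is 0.681% of them, by limma with Benjamini-Hochberg adjustment over all 17616 genes tested and a threshold of 0.05. The response stood higher in TOV21G for 32 genes (0.287%) and lower for 44 (0.394%). Over all 17616 genes tested 96 were called (0.545%), 0.238% higher and 0.307% lower. An unadjusted p under 0.05 was reached by 1565 genes (14.0% against 11.9%). Libraries of ascites and control did not overlap for 3233 of the 11165 genes in CAOV3 (29.0% against 24.2% of all genes tested) and 1270 in TOV21G (11.4% against 11.1%). For comparison, the response within CAOV3 was called for 256 genes (2.29%, against 1.73% of all genes tested), of which 86 rose (0.770% against 0.636%) and 170 fell (1.52% against 1.10%). Within TOV21G it was called for 58 genes (0.519% against 0.409%), of which 15 rose (0.134% against 0.142%) and 43 fell (0.385% against 0.267%). The number of called differences depended on single libraries. It fell to 30 without CAOV3 ascites replicate 1 and rose to 121 without TOV21G ascites replicate 2, was 51 and 83 without TOV21G control replicates 1 and 2, and lay between 31 and 50 without any other. Of the 76 calls, 24 were made in each of the 12 fits that left out 1 library.

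Most called differences were responses called in CAOV3 and not in TOV21G, referred to here as responses in CAOV3 alone. In 57 of the 76 genes (0.511% of 11165, against 0.397% of all genes tested) the CAOV3 response was called and the TOV21G response was not, 30 of them rising and 27 falling in CAOV3. The 30 rises had a median response of 0.59 in CAOV3 and -0.07 in TOV21G, and the 27 falls a median of -0.38 and 0.09. The mirror pattern, a call in TOV21G and none in CAOV3, held for 7 genes (0.0627% against 0.0795%). In 2 genes (0.0179% against 0.0114%) both lines fell but by unequal amounts. In 1 gene (0.00896% against 0.00568%) the lines moved in opposite directions with both responses called. In 9 genes (0.0806% against 0.0511%) the difference was called although neither response was. Against these, 20 genes (0.179% against 0.114%) responded in both lines in the same direction with no called difference, and 19 of those 20 fell. A further 176 genes were called in CAOV3 and 28 in TOV21G without a called difference, so their response was not shown to differ between lines. Without 1 library the genes of CAOV3 alone numbered from 22 (CAOV3 ascites replicate 1 left out) to 72 (TOV21G ascites replicate 2), those of TOV21G alone from 3 (TOV21G control replicate 3 or ascites replicate 3) to 20 (TOV21G ascites replicate 2), and the shared genes from 8 (TOV21G control replicate 3) to 26 (TOV21G ascites replicate 2).

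**Figure D1:**
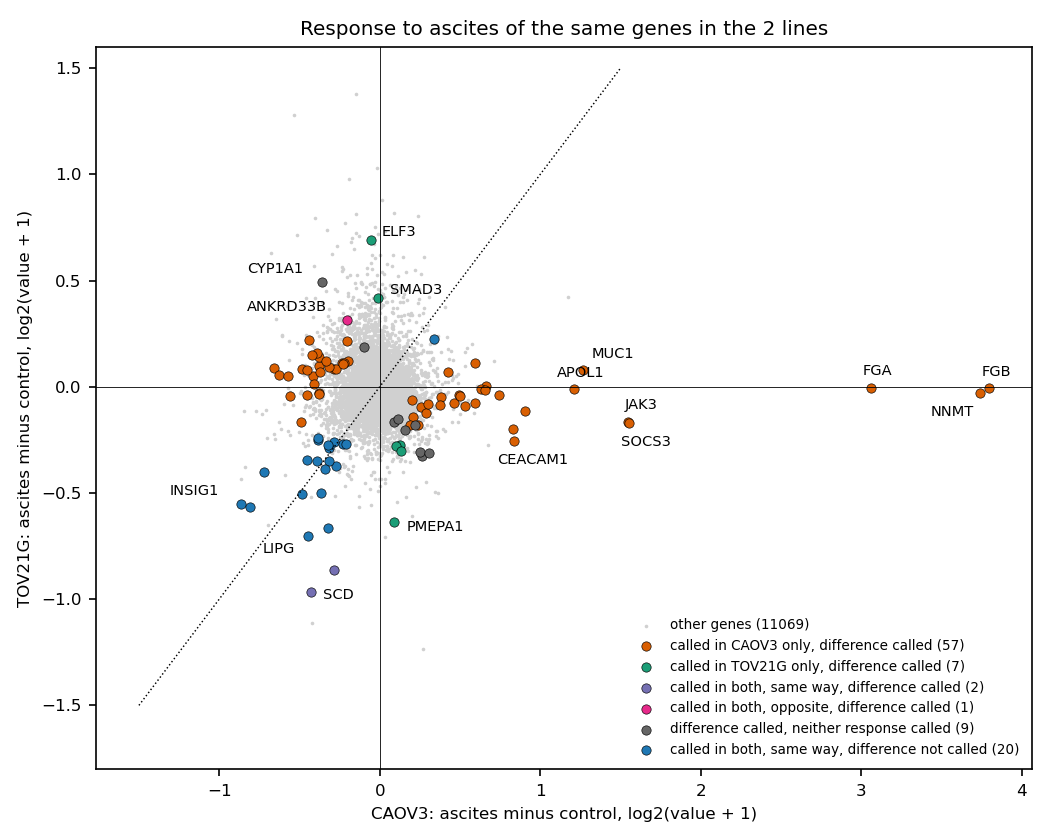
Response to ascites of each of the 11165 genes, as the fitted ascites minus control difference on the log2(value + 1) scale, in CAOV3 (x axis) and TOV21G (y axis), coloured by class, with equal responses on the dotted diagonal. FGB, NNMT and FGA lie far right at a TOV21G response near 0, and ELF3 and SMAD3 lie above the origin. Of the 20 genes called in both lines the same way with no called difference, 19 lie at the lower left.

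Among the 76 the largest differences were in acute-phase and STAT3 pathway genes that rose in CAOV3 alone. FGB encodes the beta chain of fibrinogen, the precursor of clots, and lies at chr4:154562956-154571086, plus strand (GRCh38, GENCODE release 29). Its normalised read count was 79.4, 65.6 and 104 in CAOV3 controls and 1157, 1026 and 1275 with ascites, against 4805, 4151 and 4495 in TOV21G controls and 4369.8, 4896 and 4137 with ascites. All CAOV3 ascites libraries lay above all CAOV3 controls, the TOV21G groups overlapped, and every TOV21G library lay above every CAOV3 library. The CAOV3 response was 3.80 (SE 0.13) and the TOV21G response -0.01 (-0.29 to 0.28, 95% interval), a difference of -3.81 (SE 0.19, limma adjusted p = 7.04e-07). Whole wells were measured, so a change in every cell and a change in some cells cannot be told apart. FGA, the alpha chain of the same protein, showed the same order of groups. It read 34.0, 29.0 and 42.6 (control) and 301, 246 and 354 (ascites) in CAOV3, and 473, 429.8 and 502 (control) and 438, 530.1 and 435 (ascites) in TOV21G. Its difference was -3.06 (SE 0.21, adjusted p = 1.60e-05). One more gene of the acute-phase list reached 50 in both lines but had no call, so 2 of 3 such genes rose in CAOV3, 0 in TOV21G, and 2 differed between lines. Over all 11165 genes these shares were 0.770%, 0.134% and 0.681%. FGA was under 50 in all CAOV3 controls and entered the selection through its ascites libraries. Only 3 of the 11 acute-phase genes tested entered, so the count of 2 of 3 is partly set by the selection. FGG, the gamma chain, was outside the selection, with means of 16.9 in CAOV3 ascites and 3.09 in TOV21G controls, and was listed at 0 in CAOV3 controls.

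NNMT, a methyltransferase of nicotinamide and a known STAT3 target, followed the fibrinogen genes. CAOV3 controls held 27.2, 51.6 and 34.6 and CAOV3 ascites libraries 480.2, 461 and 569.9, whereas TOV21G held 3896, 3348 and 3447 in controls and 3446, 3712 and 3307 with ascites. The 3 CAOV3 ascites libraries thus lay above their controls but below every TOV21G library. The difference in response was -3.77 (SE 0.24, adjusted p = 6.48e-06). SOCS3, the feedback inhibitor of JAK signalling, (chr17:78356778-78360077, minus strand) read 159, 154 and 139.5 in CAOV3 controls and 416, 456 and 461 with ascites. In TOV21G it read 285, 237 and 260.2 (control) and 229, 260.2 and 206 (ascites), so that CAOV3 passed from below the TOV21G libraries to above them. This gave a difference of -1.73 (SE 0.14, adjusted p = 8.37e-05). JAK3, a kinase that works with cytokine receptors of the common gamma chain, rose from 80.6, 123 and 107 to 325, 264 and 315 in CAOV3 and read 214, 260.0 and 263 (control) and 229, 205 and 220.1 (ascites) in TOV21G. Its CAOV3 ascites libraries all passed the highest TOV21G library, 263, and the difference was -1.71 (SE 0.20, adjusted p = 0.00320). MUC1, a membrane mucin, held 46.5, 48.4 and 55.4 (control) and 128, 109 and 129 (ascites) in CAOV3 and 372, 428 and 406 (control) and 465, 402 and 405 (ascites) in TOV21G, with a difference of -1.19 (adjusted p = 0.00445). The calls of FGB, FGA, NNMT, SOCS3, JAK3 and MUC1 held in all 12 fits that left out 1 library. Those of JAK3 and MUC1 were lost in a limma fit with a term for replicate number (adjusted p = 0.0827 each).

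STAT3 itself rose in CAOV3, from 1809, 1757 and 1852 to 2377, 2389 and 2525. TOV21G libraries held 7912, 7221 and 7464 in controls and 7848, 8165 and 7726 with ascites, overlapping groups that all lay above CAOV3. The CAOV3 response was 0.43 (SE 0.04), the TOV21G response 0.07 (-0.02 to 0.16), and the difference -0.36 (adjusted p = 0.0210). JUNB, an AP-1 transcription factor induced early after stimulation, differed by -0.54 (adjusted p = 0.0269), with group means of 2304 ± 175 (control) and 3167 ± 96.2 (ascites) in CAOV3 and 2354 ± 149.7 (control) and 2236 ± 183 (ascites) in TOV21G (SD, n = 3). The calls on these differences were lost in 7 and 9 of the 12 single-library omissions. The adjusted p was highest for STAT3 at 0.0764 without TOV21G ascites replicate 1, and for JUNB at 0.0939 without TOV21G control replicate 3. Of the 20 genes of the STAT3 list 7 rose in CAOV3, against 0.770% over all genes of the comparison. In TOV21G 0 were called, against 0.519%, and 5 had a lower response in TOV21G than in CAOV3, against 0.394%. The other 2 that rose in CAOV3, CEBPD and IL6ST, had differences of -0.59 and -0.14 that were not called (adjusted p = 0.0512 and 0.383). The median response of the list was 0.18 in CAOV3 and -0.02 in TOV21G, against 0.00 and -0.03 over the 11165 genes.

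The receptors and kinases upstream of STAT3 had unlike levels in the lines. IL6R, which binds interleukin-6, read 326 to 337 in CAOV3 controls and 60.8 to 77.2 in TOV21G controls. The opposite order held for the mean of OSMR, the receptor of oncostatin M, at 2.09 ± 0.919 and 3882 ± 32.4, and for LIFR, the receptor of leukemia inhibitory factor, at 8.82 ± 0.993 and 384 ± 43.3. Both of these fell under the level of 50 in CAOV3. IL6ST averaged 3109 ± 141 and 7903 ± 191. JAK1, the main kinase bound to gp130, averaged 2639.9 ± 159.8 and 196 ± 13.9, and JAK2 237 ± 17.6 and 609 ± 58.0. Neither IL6R, JAK1 nor JAK2 had a called difference in response (adjusted p = 0.510, 0.218 and 0.797). The part of these levels in the responses was not tested.

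**Figure D2:**
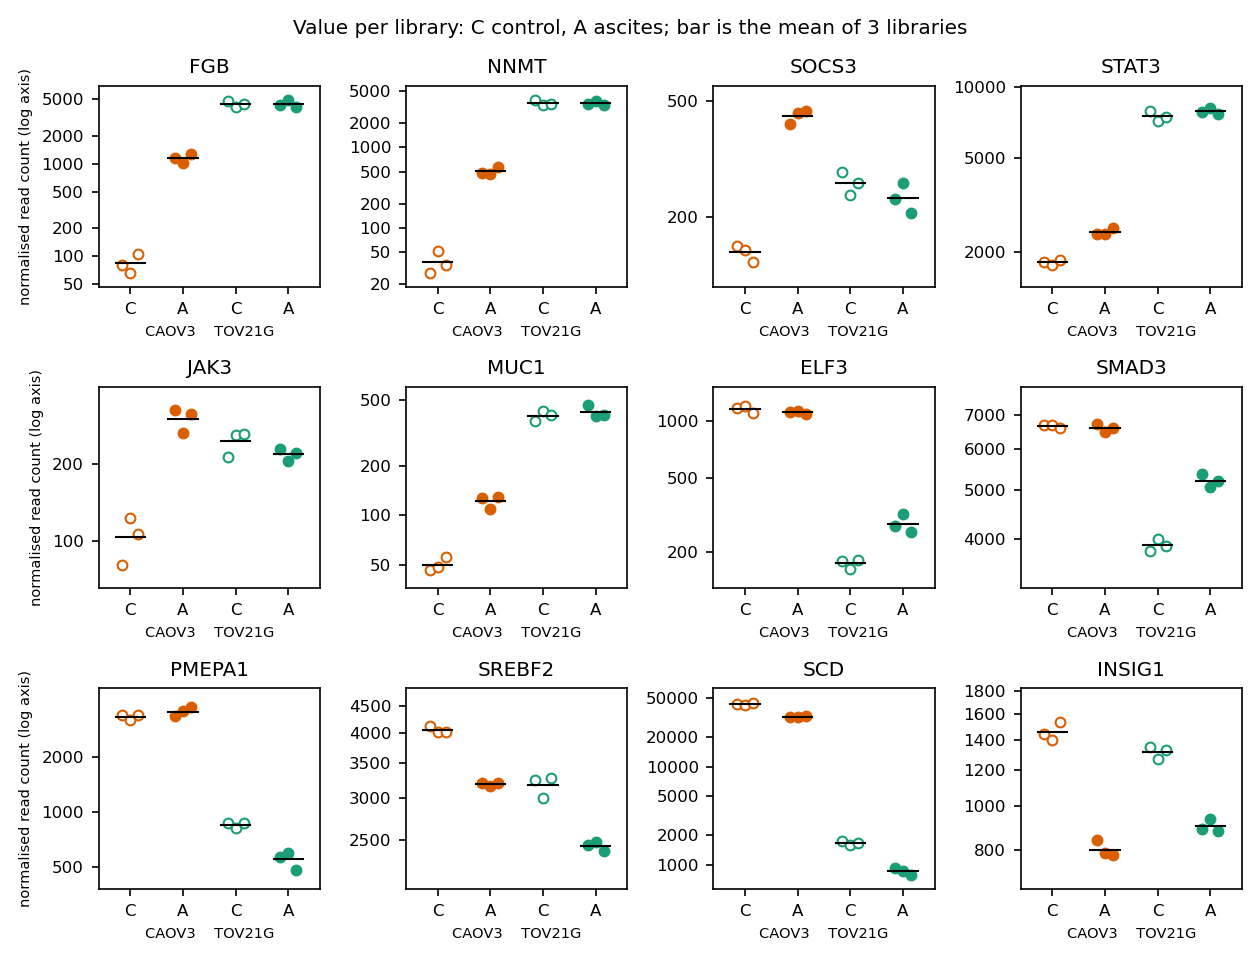
Normalised read count (log axis) of 12 genes in each of the 12 libraries, control (C, open) and ascites (A, filled), with a bar at the mean of 3 libraries. FGB, NNMT, SOCS3, JAK3, MUC1 and STAT3 step up in CAOV3 with overlapping TOV21G groups, ELF3, SMAD3 and PMEPA1 move in TOV21G, and SREBF2, SCD and INSIG1 fall in both lines.

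Sequence before the start of these genes was searched for a STAT motif, TTCCNGGAA, on both strands, in the 250 bases before each start of the RefSeq table (GRCh38.p14). The motif was held by 1.21% of all 27305 genes of the table. Among the 11165 genes 8894 had a promoter there, and 1.33% of these held it. Of the 30 genes that rose in CAOV3 alone 25 had a promoter, and 2 of the 25 (8%) held the motif. They are FGA and PROS1. Their stretches of 100 bases are shown because FGA is among the largest differences and both hold the letters, which are in capitals. The FGA match lies 231 to 223 bases before the start (chr4:154590893-154590992, minus strand) and the PROS1 match 77 to 69 bases before it (chr3:93973920-93974019, minus strand).
FGA: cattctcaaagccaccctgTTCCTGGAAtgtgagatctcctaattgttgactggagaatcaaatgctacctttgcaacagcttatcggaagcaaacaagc
PROS1: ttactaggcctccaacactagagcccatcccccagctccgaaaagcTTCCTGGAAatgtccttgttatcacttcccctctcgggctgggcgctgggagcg
A match describes letters only, and genes with no match in this window, among them SOCS3 and FGB, are not thereby shown to lack a site. The NF-kB motif was found in 1 of the 25, JAK3 (0.645% of all genes of the table and 0.742% of the 8894). The C/EBP-ATF motif TGATGNAA was found in 0 of them (3.89% and 2.06%). The STAT motif was not confined to these rises. It was also in 1 of the 8 genes with a promoter where the difference but neither response was called (12.5%). Among the 20 falls in CAOV3 alone with a promoter, 0 held the STAT motif and 1 the NF-kB motif.

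Single genes of antigen presentation, the interferon response and coagulation also rose in CAOV3 alone. NLRC5, the transactivator of HLA class I genes, rose in CAOV3 from 68.1, 95.7 and 96.0 to 142, 147 and 169.8 and read 560.4, 581 and 581 (control) and 478, 497 and 523 (ascites) in TOV21G. Its TOV21G ascites libraries lay below their controls without a call, and the difference was -1.03 (SE 0.17, adjusted p = 0.0177). The HLA class I list held 16 genes, of which 3 rose in CAOV3, against 0.770% of all 11165 genes. They were NLRC5, the peptide transporter TAP2 and the immunoproteasome subunit PSMB8. In TOV21G 0 rose, against 0.134%, and 1 differed between lines, against 0.681%. With a share this low, 0 of 16 does not by itself show that these genes did not respond in TOV21G. All 16 estimates were positive in CAOV3, against 5724 of 11165 genes. In TOV21G 5 of 16 were positive, against 4074 of 11165. The estimated difference was positive in 0 of 16, against 4622 of 11165 genes. The median response was 0.15 in CAOV3 and -0.02 in TOV21G. PARP9, a partner of the ubiquitin ligase DTX3L in the interferon response, differed by -0.66 (adjusted p = 0.0254), with 224 to 276 in CAOV3 controls, 351 to 410.3 with ascites, and 747 to 804 (control) and 749.9 to 794 (ascites) in TOV21G. Of 14 interferon-stimulated genes 4 rose in CAOV3 (ISG15, IRF1, PARP9 and DTX3L), against the same 0.770%. In TOV21G 0 rose, against 0.134% of all genes, and 1 differed, against 0.681%. These 14 do not include IFITM1 and IFITM3, named below, which also rose in CAOV3 alone. The median response of the 14 was 0.04 in CAOV3 and 0.03 in TOV21G, and the estimated difference was positive in 7 of 14. PARP9 and DTX3L overlap on opposite strands, so without knowledge of the strand in counting their reads cannot be fully told apart. PROS1, which encodes protein S, a brake on coagulation, rose in CAOV3 by 0.63 and read -0.01 in TOV21G (difference -0.64, adjusted p = 0.0380). The calls on PARP9, NLRC5 and PROS1 were lost in 7, 3 and 9 of the 12 fits, where the adjusted p rose at most to 0.0863 without TOV21G control replicate 3, 0.0675 without TOV21G ascites replicate 1 and 0.115 without TOV21G ascites replicate 1.

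Other genes that rose in CAOV3 alone had varied roles. CEACAM1, an adhesion receptor, rose from 1255, 1238 and 1179 to 2201, 2165 and 2191 in CAOV3. TOV21G held 82.4, 82.8 and 70.0 in controls and 65.4, 67.3 and 63.5 with ascites, where the ascites libraries were all below the controls, and the difference was -1.09 (SE 0.10, adjusted p = 0.000279). This gene stood higher in CAOV3 before the exposure, unlike most of its class. APOL1, an apolipoprotein of innate defence, read 116, 77.4 and 107 (control) and 224, 202 and 265 (ascites) in CAOV3 and 2043, 1935 and 1953 (control) and 1954, 2071 and 1861 (ascites) in TOV21G (difference -1.22, adjusted p = 0.00930). ANGPTL4, an inhibitor of lipoprotein lipase, differed by -0.54 (adjusted p = 0.0104), and SPRED3, a brake on RAS and ERK signalling, by -0.67 (adjusted p = 0.00930). AREG, a ligand of the EGF receptor, rose from 412 ± 50.2 to 593 ± 18.6 in CAOV3 and read 808 ± 50.4 (control) and 760.2 ± 65.9 (ascites) in TOV21G (difference -0.62, adjusted p = 0.0421). TGM2, a protein cross-linking enzyme, differed by -0.49, BHLHE40, a clock-linked repressor, by -0.42, KRT8, a keratin of simple epithelia, by -0.41, and VEGFA, the endothelial growth factor, by -0.37. Their adjusted p-values were 0.0166, 0.0269, 0.0483 and 0.00930. A difference of at least 1 on the log2 scale was reached by 10 of the 76 genes, all of them CAOV3 rises. IFITM1, an interferon-induced membrane protein at -1.02, is the only one of the 10 not described above and was picked after its value was seen. Its close relative IFITM3 is in the same class, and reads of such near copies could be split in counting. NNMT, MUC1, CEACAM1 and NLRC5 overlap another annotated gene, whereas FGB, FGA, SOCS3, JAK3 and APOL1 do not. Leaving out 1 library ended the call for AREG in 9 fits, TGM2 in 4, BHLHE40 in 9 and KRT8 in 10, where the adjusted p rose at most to 0.133 without TOV21G control replicate 3, 0.0606 without CAOV3 ascites replicate 1, 0.0895 without CAOV3 ascites replicate 1 and 0.147 without TOV21G control replicate 3. For APOL1, CEACAM1, ANGPTL4, SPRED3 and VEGFA it did not end the call on the difference. The call on the CAOV3 response itself was lost for VEGFA in 6, BHLHE40 in 7 and KRT8 in 6 of the 12 fits, where its adjusted p rose at most to 0.0995 without CAOV3 ascites replicate 3, 0.165 without CAOV3 ascites replicate 3 and 0.102 without CAOV3 ascites replicate 3.

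The 27 falls seen in CAOV3 alone were smaller, with no difference of 1 or more. CLDN7, a tight junction claudin, fell from 490.3, 478 and 461 to 269, 324 and 313 in CAOV3, while TOV21G held 131, 138 and 140.0 (control) and 158, 153 and 126 (ascites). The CAOV3 groups did not overlap and the TOV21G groups did, and the difference was 0.75 (SE 0.14, adjusted p = 0.0360). SCNN1A, the alpha subunit of the epithelial sodium channel, fell from 393 to 443 to 304 to 331 in CAOV3 and read 602 to 661 (control) and 706 to 713 (ascites) in TOV21G (difference 0.55). The semaphorins SEMA4G and SEMA6A, guidance ligands at the cell surface, differed by 0.57 and 0.53. TBX18, a T-box transcription factor, differed by 0.62, the vesicle gene SYTL2 by 0.57, RAB40B, a Rab-like GTPase, by 0.68 and the unnamed gene ENSG00000279117 by 0.66. Adjusted p-values ran from 0.00930 for SEMA6A to 0.0360 for CLDN7. TFRC, the transferrin receptor through which cells take up iron, read 18863, 18713 and 20081 in CAOV3 controls and 13752, 13748 and 13499 with ascites. In TOV21G it read 19056, 18749 and 19309 (control) and 17175, 17319 and 16489.5 (ascites). The ascites libraries lay below the controls in both lines, but the call was made in CAOV3 alone (-0.49 against -0.16) and the difference was 0.33 (adjusted p = 0.0264). For 17 of the 27 the 95% interval of the TOV21G response spanned 0, as it did for 26 of the 30 rises. Leaving out 1 library ended the call for CLDN7 in 11 of 12 fits (0.101 without TOV21G ascites replicate 1), RAB40B in 9 (0.0785 without TOV21G ascites replicate 3), TBX18 in 8 (0.0844 without TOV21G control replicate 3), TFRC in 8 (0.0930 without TOV21G ascites replicate 1), SEMA4G in 3 (0.0605 without TOV21G control replicate 3) and SYTL2 in 2 (0.0518 without TOV21G ascites replicate 1), giving in parentheses the highest adjusted p and its fit.

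The 7 genes called in TOV21G and not in CAOV3, referred to as TOV21G alone, include transcription factors and TGF-beta genes. The estimates of the lines had opposite signs in all 7. The interval of the CAOV3 response spanned 0 for only 3 of the 7, so the lack of a CAOV3 call does not show an absent response. ELF3, an epithelial transcription factor induced by NF-kB, rose in TOV21G from 179, 163 and 180.3 to 275, 318 and 255, and CAOV3 held 1178, 1202 and 1106 (control) and 1119, 1141 and 1095 (ascites). The TOV21G groups were apart and the CAOV3 groups overlapped, at a higher level throughout. The TOV21G response was 0.69 (SE 0.08) and the difference 0.75 (adjusted p = 0.00930). SMAD3, a signal transducer of the TGF-beta receptor (chr15:67063763-67195195, plus strand), rose in TOV21G from 3795, 4001 and 3877 to 5364, 5049 and 5202. In CAOV3 it read 6687, 6699 and 6606 (control) and 6712, 6488 and 6608 (ascites), overlapping groups, and the difference was 0.43 (SE 0.05, adjusted p = 0.00267). PMEPA1, a TGF-beta target that restrains SMAD signalling, moved the other way. It fell in TOV21G from 877, 822 and 874 to 572, 602 and 485 and read 3392, 3209.7 and 3407 (control) and 3343, 3562 and 3755 (ascites) in CAOV3, a difference of -0.73 (SE 0.10, adjusted p = 0.00664). The calls on ELF3, SMAD3 and PMEPA1 held in all 12 fits that left out 1 library. They were lost in a limma fit with a term for replicate number (adjusted p = 0.119, 0.0881 and 0.0872).

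The other 4 falls seen in TOV21G alone were PLEK2, a pleckstrin family protein, the long non-coding RNA LINC00941, PDLIM7, an actin-associated scaffold, and PFKFB3, a regulator of glycolysis. Their differences were -0.44, -0.40, -0.40 and -0.38, with adjusted p-values of 0.0157, 0.0155, 0.0257 and 0.0157. PFKFB3 read 23336 to 25061 in TOV21G controls and 19120.3 to 21013 with ascites, and 3531 to 3732 (control) and 3812 to 3920.5 (ascites) in CAOV3. Each of the 4 lost its call without some library, in 4, 3, 10 and 6 of 12 fits, where the adjusted p rose at most to 0.0588 without CAOV3 ascites replicate 3, 0.0606 without CAOV3 ascites replicate 1, 0.0827 without TOV21G ascites replicate 1 and 0.0611 without TOV21G control replicate 3. The call on their TOV21G response was lost in 4, 2, 10 and 4 of 12 fits, with adjusted p up to 0.109 without TOV21G control replicate 3, 0.0924 without TOV21G control replicate 3, 0.129 without TOV21G ascites replicate 1 and 0.0857 without TOV21G control replicate 3.

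NF-kB genes were called mainly in TOV21G, but the difference was called for ELF3 alone. Of 23 genes of that list 5 rose in TOV21G, against 0.134% of all 11165 genes. They were TNFAIP3, a deubiquitinase that ends NF-kB signalling, BIRC3, an inhibitor of apoptosis, SOD2, a mitochondrial superoxide dismutase, the pentraxin PTX3, and ELF3. TNFAIP3 read 1100.2, 1048 and 1039.9 in TOV21G controls and 1550.5, 1679 and 1528 with ascites, against 129, 131 and 126 (control) and 108, 147 and 147 (ascites) in CAOV3, where the groups overlapped. Its difference was 0.53 (0.22 to 0.84, adjusted p = 0.171), and those of BIRC3, SOD2 and PTX3 were 0.33, 0.27 and 0.47 (adjusted p = 0.106, 0.116 and 0.182). In CAOV3 1 of the 23 rose, against 0.770% of all genes. This was the adhesion molecule ICAM1, from 57.9, 49.5 and 45.5 to 131, 101 and 117. ICAM1 read 1674, 1514 and 1447 (control) and 2025, 2281 and 1906 (ascites) in TOV21G, where the ascites libraries also lay above the controls, and its difference of -0.75 was not called (adjusted p = 0.0566). The median response of the list was 0.05 in CAOV3 and 0.23 in TOV21G. Positive estimates numbered 14 and 20 of 23, against 5724 and 4074 of all 11165 genes.

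Sterol genes were the main group that went the same way in both lines. INSIG1, the sterol sensor that retains the SREBF factors, fell from 1444, 1400.5 and 1536 to 839, 785 and 779 in CAOV3 and from 1349.5, 1274 and 1334 to 889.5, 934 and 879 in TOV21G. The groups were apart in each line, the responses were -0.87 and -0.55 (SE 0.05 each), and the difference of 0.32 (0.16 to 0.47) was not called (adjusted p = 0.0779). SREBF2, the sterol-responsive transcription factor itself, read 4127, 4016 and 4013 (control) and 3216, 3171 and 3208 (ascites) in CAOV3 and 3258, 2999 and 3277 (control) and 2437, 2472 and 2377 (ascites) in TOV21G, with a difference of -0.05 (-0.16 to 0.07). IDI1, an isomerase of the mevalonate pathway, fell by 0.48 in CAOV3 and 0.50 in TOV21G on the log2 scale. Of 20 cholesterol synthesis genes 9 fell in CAOV3 and 7 in TOV21G, against 1.52% and 0.385% of all 11165 genes. Of the 20, 6 fell in both lines, and the estimated difference was above 0 for 10, against 4622 of all 11165 genes. The difference was called for 0, against 0.681% of all genes, so 0 of 20 does not by itself show equal responses. The median responses of the list were -0.23 and -0.22. Of 15 genes of sterol sensing, uptake and transport 7 fell in each line and 1 differed, against the same shares. LIPG, an endothelial lipase, and STARD4, a sterol carrier, fell in both lines, but STARD4 lost its TOV21G call in 10 of 12 fits (0.179 without TOV21G control replicate 3) and LIPG its CAOV3 call in 6 (0.109 without CAOV3 ascites replicate 2).

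The sterol response element TCACNCCAC was held by 1.09% of all genes of the table. Among the 8894 genes of the comparison with a promoter the share was 1.12%. Of the 19 genes that fell in both lines with no called difference 15 had a promoter, and 1 of the 15 held the element. That gene is SREBF2, with the match 133 to 125 bases before the start (chr22:41832926-41833025, plus strand), shown because SREBF2 is itself the factor known to drive these genes. The element was also found in 1 of the 20 genes with a promoter among the falls in CAOV3 alone (5%), SEMA4G, which is not shown. The capitals mark the SREBF2 match.
SREBF2: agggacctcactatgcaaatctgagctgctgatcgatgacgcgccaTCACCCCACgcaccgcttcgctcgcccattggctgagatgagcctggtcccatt

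SCD was a lipid gene that fell in both lines and further in TOV21G. This enzyme, which desaturates stearic acid to oleic acid, read 43713, 42182 and 45139.6 (control) and 32248, 31979 and 32970.0 (ascites) in CAOV3, and 1760.3, 1607 and 1674 (control) and 916, 868 and 794 (ascites) in TOV21G. The groups were apart in each line, with responses of -0.43 and -0.97 and a difference of -0.54 (SE 0.07, adjusted p = 0.00664). Its difference was called in all 12 fits. Among 20 genes of fatty acid synthesis and desaturation 8 fell in CAOV3 and 4 in TOV21G, against 1.52% and 0.385% of all 11165 genes. SCD was the 1 of the 20 that differed, against 0.681% of all genes. FADS2, a desaturase of polyunsaturated fatty acids, fell in CAOV3 by 0.56 on the log2 scale and read -0.23 in TOV21G, a difference of 0.33 that was not called (adjusted p = 0.162).

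Targets of bone morphogenetic proteins also fell in both lines. ID3, an inhibitor of basic helix-loop-helix factors, read 3911, 3969 and 3688 (control) and 3163, 3032 and 3101 (ascites) in CAOV3 and 14657, 12774 and 13315 (control) and 10326, 11637 and 10050.1 (ascites) in TOV21G, groups apart in each line. Its difference was -0.03 (-0.22 to 0.15). ID2, of the same family, and MSX2, a homeobox factor, differed by 0.03 (-0.12 to 0.19) and -0.06 (-0.20 to 0.09). SAMD11 and its neighbour on the opposite strand, LINC02593, fell in both lines as well. SAMD11 fell by 0.32 in CAOV3 and 0.66 in TOV21G on the log2 scale, and its difference of -0.34 was not called (adjusted p = 0.0640). Of 13 BMP genes 4 fell in CAOV3 and 5 in TOV21G, against 1.52% and 0.385% of all 11165 genes. The difference was called for 0 of the 13, against 0.681% of all genes. EREG, a ligand of the EGF receptor, was the 1 gene that rose in both lines. It read 2027, 2139 and 2139 (control) and 2744, 2652 and 2590.5 (ascites) in CAOV3 and 14154, 14040.2 and 14302 (control) and 16544, 16999 and 16164 (ascites) in TOV21G, and its difference was -0.12 (adjusted p = 0.416). Its TOV21G call was lost in 3 of 12 fits (0.0857 without TOV21G control replicate 3).

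Opposite movement was called in both lines for a single gene. ANKRD33B, an ankyrin repeat protein, read 1505, 1604 and 1548 (control) and 1386, 1379 and 1277 (ascites) in CAOV3, a fall, and 2179.8, 2332 and 2260.1 (control) and 2878, 2829 and 2721 (ascites) in TOV21G, a rise. The difference of 0.52 (SE 0.06, adjusted p = 0.00329) held in all 12 fits, but the CAOV3 call was lost in 8 of them (0.153 without CAOV3 ascites replicate 3) and the TOV21G call in 1 (0.0508 without TOV21G control replicate 3). In the 9 genes with a called difference and no called response the estimates of the lines all had opposite signs. CYP1A1, a monooxygenase induced through the aryl hydrocarbon receptor, read 160.0, 179.6 and 187 (control) and 135, 139 and 135 (ascites) in CAOV3 and 105, 97.5 and 111 (control) and 142, 153 and 148 (ascites) in TOV21G. Its ascites libraries lay below the controls in CAOV3 and above them in TOV21G, a difference of 0.86 (SE 0.14, adjusted p = 0.0157). GADD45B, a stress-induced growth arrest gene, IER5L, an immediate early response gene, and DNTTIP1, a subunit of a histone deacetylase complex, differed by -0.59, -0.56 and -0.40 (adjusted p = 0.0482, 0.0370 and 0.0328). None of the 9 calls held in all 12 fits: CYP1A1 lost it in 2 (0.0533 without CAOV3 ascites replicate 1), GADD45B in 10 (0.147 without CAOV3 ascites replicate 3), IER5L in 10 (0.115 without TOV21G ascites replicate 1) and DNTTIP1 in 9 (0.100 without TOV21G control replicate 3).

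The TGF-beta list of 24 genes had calls in both directions in each line, where 2.29% (CAOV3) and 0.519% (TOV21G) of all 11165 genes were called. BHLHE40 rose and CCN2, a matricellular growth factor, fell in CAOV3. SMAD3 rose, and PMEPA1 and SMAD7, an inhibitory SMAD, fell in TOV21G. Among the genes reported, the difference was called higher in TOV21G for SMAD3 and lower for PMEPA1 and BHLHE40, and the median responses were -0.02 and -0.08. Across 30 function lists, written with results of these data known, 11 had called genes in both lines, 15 in CAOV3 alone, 1 in TOV21G alone and 3 in neither. At least 1 called difference fell in 20 lists, and a gene shared by the lines in 5: cholesterol synthesis, sterol sensing, fatty acid synthesis, BMP response and EGF family. The 42 genes of cell cycle and proliferation, 25 of the unfolded protein response and 6 of complement had 0 calls in either line and 0 called differences. Among all 11165 genes a difference was called for 0.681%, a CAOV3 response for 2.29% and a TOV21G response for 0.519%. With shares this low, these counts of 0 do not by themselves show that such genes did not respond. Epithelial genes split: KRT8 and KRT18 rose and CLDN7 and TJP3 fell in CAOV3, while ELF3 rose in TOV21G. KRT8 and KRT18 overlap on opposite strands in the annotation.

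**Figure D3:**
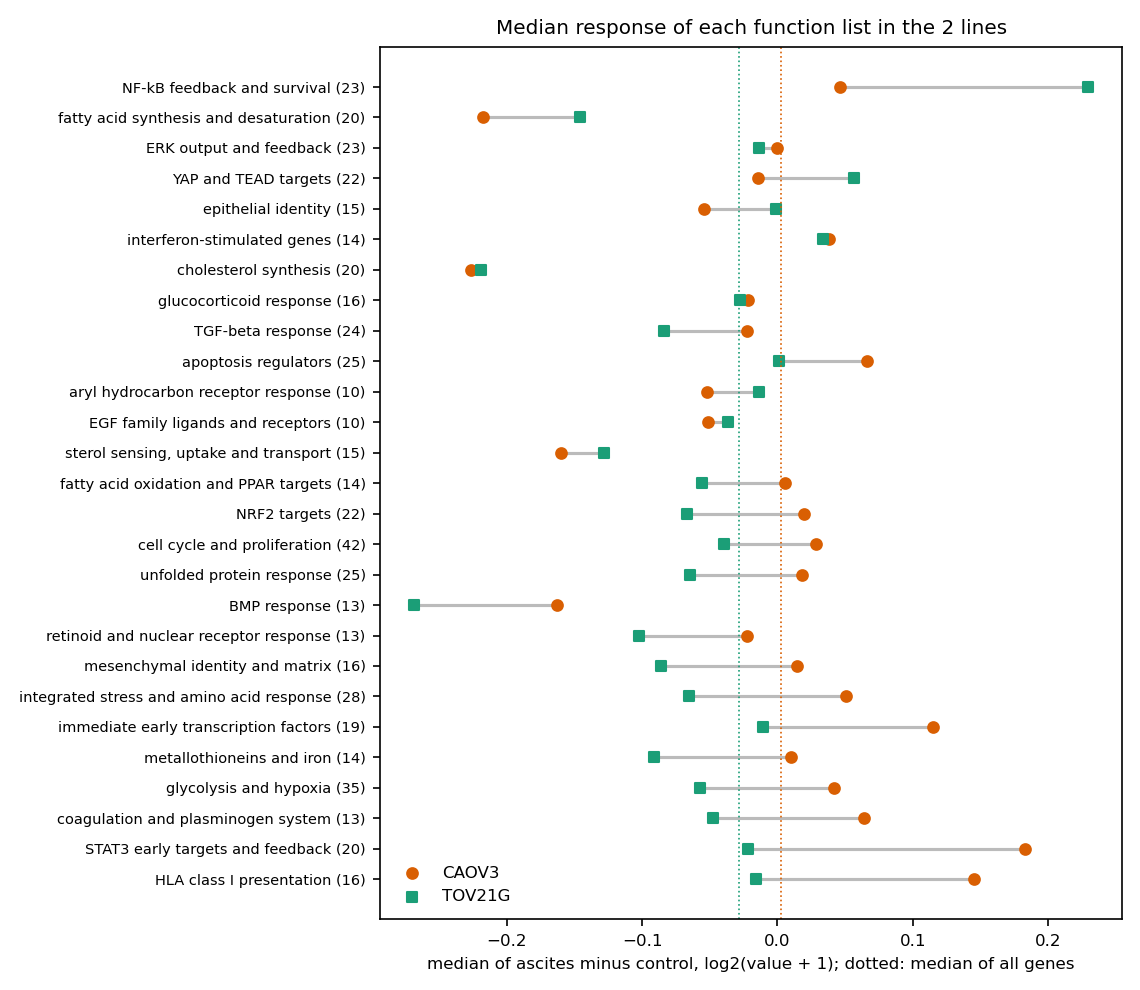
Median response to ascites over each function list with 10 or more genes, in CAOV3 (circles) and TOV21G (squares), on the log2(value + 1) scale, ordered by the median difference, with the number of genes in parentheses. STAT3 targets (0.18 and -0.02) and HLA class I genes (0.15 and -0.02) lie apart in the 2 lines, NF-kB genes lie apart the other way (0.05 and 0.23), and cholesterol synthesis lies low in both (-0.23 and -0.22).

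The baseline level of a gene was related to its response by counts, with no test, because the groups are shared between both quantities. Of the 30 genes that rose in CAOV3 alone 23 (76.7%) had a mean in untreated TOV21G cells above the mean that CAOV3 reached with ascites, against 50.4% of all 11165 genes. In 3 more, TOV21G controls lay between the CAOV3 groups, and in 4, CEACAM1 and KRT8 among them, below CAOV3 controls. The level of the 30 over the 6 libraries of each line was higher in TOV21G by a median of 1.68 on the log2 scale, against 0.00 over all genes, and by 2 or more for 10 of the 30. FGB shows the pattern: CAOV3 with ascites averaged 1153 and TOV21G without it 4484. SOCS3 does not, since CAOV3 with ascites (444) passed TOV21G controls (261). Of the 27 falls 15 (55.6%) had TOV21G controls above CAOV3 ascites, with a median level difference of 0.89, and 6 of the 27 stood higher in TOV21G by 2 or more. The 55 genes that rose in CAOV3 without a called difference had TOV21G controls above CAOV3 ascites in 26 (47.3%) and a median level difference of 0.03. Genes low in CAOV3 controls could enter the 30 through their ascites libraries, as NNMT and FGA did, and the counts do not set these apart.

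**Figure D4:**
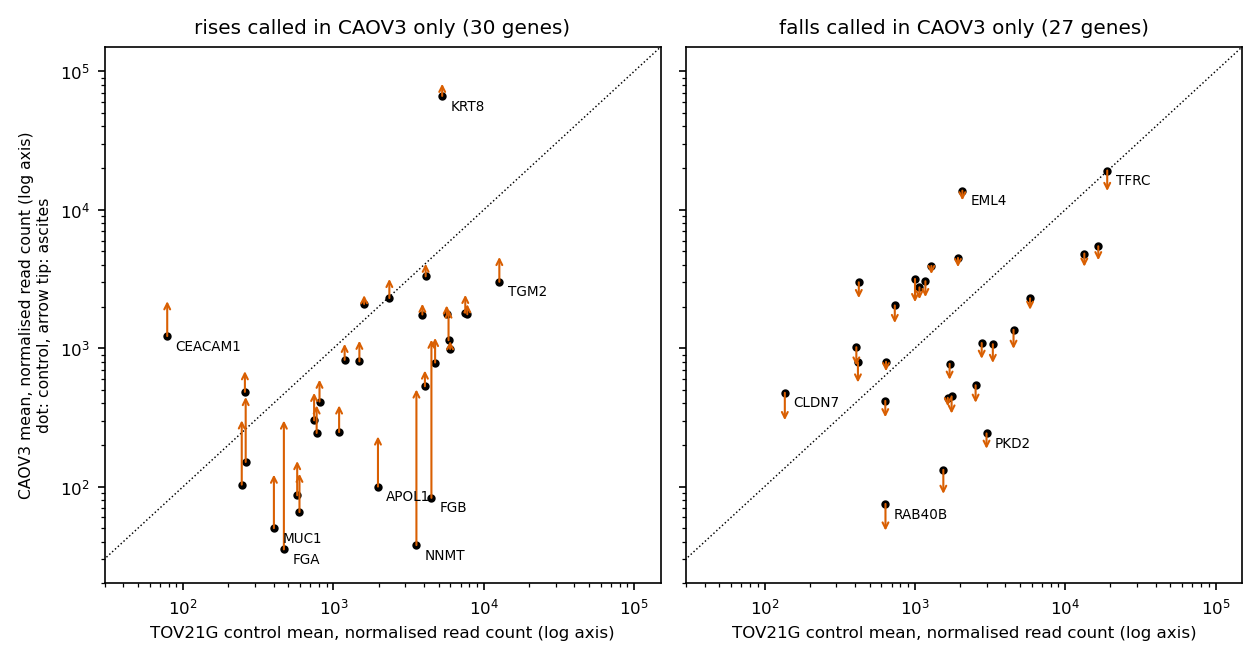
Mean normalised read count of CAOV3 in control (dot) and ascites (arrow tip) against the mean of TOV21G controls, both on log axes, for the 30 genes that rose (left) and the 27 that fell (right) in CAOV3 alone, with equal levels on the dotted line. In 23 of the 30 rises the arrow tip stays under the line, while the falls lie on both sides of it.

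A response was counted as moving toward the other line when it had the sign of the control mean of that line minus the 6-library level of the responding line. By this count 25 of the 30 CAOV3-only rises (83.3%) moved toward TOV21G, against 42.6% of all 5724 genes with a positive CAOV3 estimate. Here too, genes low in CAOV3 controls, such as NNMT and FGA, could enter the 30 through their ascites libraries. Such genes had to reach 50 in TOV21G as well, so the 83.3% is partly set by the selection. Of the 27 falls 12 did (44.4%), against 41.3% of all negative estimates. Among all genes called in CAOV3, 57 of 86 rises (66.3%) and 77 of 170 falls (45.3%) moved toward TOV21G. In TOV21G 19 of the 58 called genes (32.8%) moved toward CAOV3, against 50.2% of all genes, and 5 of its 15 rises did. Taking the level from the 3 controls gave 26 of 30 (86.7%).

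Grouped by how far the levels of the lines differed, called CAOV3 responses were most frequent at both ends. Where TOV21G was higher by 2 or more on the log2 scale, 4.65% of 452 genes rose and 4.42% fell in CAOV3. Where it was lower by 2 or more, 1.40% of 285 rose and 4.91% fell. Where levels lay within 1 of each other, 0.501% of 8184 rose and 1.01% fell. The CAOV3-only rises numbered 2, 1, 10, 7 and 10 from the lowest TOV21G level to the highest, and the falls 2, 7, 5, 7 and 6. Across all 11165 genes the relation was weak: the CAOV3 response and the TOV21G control level correlated at 0.086 (Pearson's r) and 0.081 (Spearman's rho), and the TOV21G response and the CAOV3 control level at -0.117 and -0.075. These are across genes that share their libraries and scaling and are not independent replicates.

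The precision of the difference varied with the level of a gene. From the lowest to the highest of 4 equal groups of genes by their mean of log2(value + 1) over the 12 libraries, the median standard error of the difference was 0.158, 0.0915, 0.0744 and 0.0702, and 13, 21, 22 and 20 differences were called. The median size of the called differences was 1.02, 0.55, 0.49 and 0.38.

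The level of 50 left out 20 called differences, 19 of them of 1 or more on the log2 scale, against 10 of 76 inside it. The called genes next to it were SOCS2, a SOCS family inhibitor, with a lower line mean of 43.5, DMBT1, a mucosal defence glycoprotein, with 33.5, and VSIR, an immune checkpoint ligand, with 29.6 outside, and RAB40B with 61.6, CEACAM1 with 71.9 and GADD45B with 82.4 inside. DMBT1 read 4.54, 2.15 and 4.95 in CAOV3 controls and 229.7, 175 and 272 with ascites, and 45.5, 24.1 and 46.7 (control) and 25.7, 27.4 and 31.3 (ascites) in TOV21G. SOCS2 read 23.8 to 32.3 (control) and 49.1 to 65.4 (ascites) in CAOV3, far below 797 to 884 (control) and 813 to 923 (ascites) in TOV21G. Of all genes, OGFOD2 (49.8) and C1QL4 (50.01) were the nearest to the level on either side.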

How the data were processed

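RNA sequencing was deposited for 12 libraries. Per the submitters' processing notes, Trim Galore, cutadapt, STAR, HTSeq and DESeq were used, with no versions given. The build, annotation, kit and strandedness are not given in the sources used here. The authors deposited 1 normalised signal per gene. In each library 100% of values were whole multiples of 1 step, within 5.74e-05 reads, and the reciprocal of the step matched the median-of-ratios size factor over all 12 libraries, so each signal is a gene's reads over its library's size factor, and reads were recovered for the count alternatives. Genes that never passed 9 reads are not in the lists (lowest maximum 10). Because size factors were set over both lines, the level between lines rests on that scaling.

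Here, log2(value + 1) was fitted with limma 3.58.1 (lmFit, eBayes with trend) in R 4.3.3, with a mean per group over all 12 libraries, for genes with a value of at least 10 in at least 3 libraries. P-values are two-sided and Benjamini-Hochberg adjusted over 17616 genes within each contrast, and intervals are 95%. Fold changes on this scale understate those of low genes. The script was tested on simulated data. Replicate libraries differed by more than read sampling, by a chi-square of 1.81 to 22.6 for each degree of freedom. Symbols came from a gene-name table (19087) and GENCODE release 29 (136), 28 genes stayed unnamed, and 71.1% of the 76 called genes overlap another annotated gene (70.4% of all 11165), whose reads may not be separable. Promoters are from RefSeq, GRCh38.p14.

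Genes named are, by class, the 8 largest rises and 8 largest falls in CAOV3 alone, up to 6 rises and 6 falls in TOV21G alone, all unequal and opposite genes, the 5 largest with a called difference and no called response, the 6 shared falls and 6 shared rises with the largest smaller response, and any list gene with a called difference. Other genes were named after their values were seen, and a few genes that meet the rule are not reported here. The selection of genes and all lists were chosen with earlier results of these data known. Alternatives were edgeR 4.0.16, DESeq2 1.42.0, TMM scaling, size factors within lines, pseudocounts of 0.5 and 10, no filter, weights per line, a replicate block, removal of GC and length trends, thresholds of 20 and 200, and leaving out each library.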

Additional observations from a re-analysis of the deposited data

Results flagged for a closer look

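The response to ascites differed between the lines, by the limma test of the difference itself, for the genes below. The values are TOV21G minus CAOV3 on the log2(value + 1) scale, with 3 libraries per group.

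Genes that rose in CAOV3 and were not called in TOV21G had these differences: FGB -3.81, NNMT -3.77, FGA -3.06, SOCS3 -1.73, JAK3 -1.71, APOL1 -1.22, MUC1 -1.19, CEACAM1 -1.09, NLRC5 -1.03, SPRED3 -0.67, PARP9 -0.66, PROS1 -0.64, AREG -0.62, JUNB -0.54, ANGPTL4 -0.54, TGM2 -0.49, BHLHE40 -0.42, KRT8 -0.41, VEGFA -0.37 and STAT3 -0.36.

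Genes that fell in CAOV3 and were not called in TOV21G had differences of 0.75 for CLDN7, 0.68 for RAB40B, 0.66 for ENSG00000279117, 0.62 for TBX18, 0.57 for SYTL2, 0.57 for SEMA4G, 0.55 for SCNN1A, 0.53 for SEMA6A and 0.33 for TFRC.

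Genes called in TOV21G and not in CAOV3 differed by 0.75 for ELF3, 0.43 for SMAD3, -0.73 for PMEPA1, -0.44 for PLEK2, -0.40 for LINC00941, -0.40 for PDLIM7 and -0.38 for PFKFB3. SCD at -0.54 fell in both lines and further in TOV21G, and ANKRD33B at 0.52 moved in opposite directions. Where neither response was called, CYP1A1 differed by 0.86, GADD45B by -0.59, IER5L by -0.56 and DNTTIP1 by -0.40.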

How the results depend on the processing

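The 100 gene results gave 2200 values under the alternatives: 1892 kept their side of the threshold, 308 lost it and 0 reversed. Where 76 differences were called among the 11165 genes and 96 over all genes, edgeR called 135 and 148, DESeq2 200 and 210, size factors within each line 132 and 155, and GC and length correction 147 and 168. TMM scaling called 120 among the 11165. Of the 76, edgeR kept 74, DESeq2 76, TMM 76, within-line factors 76 and GC and length correction 73. CAOV3 responses (256) numbered 401, 411 and 478 with edgeR, DESeq2 and GC and length correction, and 422 with sample weights. TOV21G responses (58) numbered 97, 134 and 95, and 34 with weights. Genes of CAOV3 alone (57) numbered 94, 125, 109 and, with within-line factors, 91. Those of TOV21G alone (7) numbered 22, 36, 22 and 17, and 16 with TMM. Shared genes (20) numbered 32 with DESeq2 and 33 with GC and length correction, under which 63.0% of CAOV3-only rises moved toward TOV21G instead of 83.3%.

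Leaving out each library in turn gave 30 to 121 called differences among the 11165 genes and 40 to 146 over all, 126 to 293 CAOV3 and 18 to 100 TOV21G responses, 22 to 72 genes of CAOV3 alone, 3 to 20 of TOV21G alone, 8 to 26 shared genes and 74.4 to 95.8% of rises toward TOV21G. With the replicate block the counts were 7 differences (9 over all genes), 91 CAOV3 and 10 TOV21G responses, 6 genes of CAOV3 alone, 0 of TOV21G alone and 4 shared. Those kept include FGB, NNMT, FGA, SOCS3, APOL1 and CEACAM1. JAK3, MUC1, ANGPTL4, SPRED3, VEGFA, ELF3, SMAD3, PMEPA1, SCD and ANKRD33B, called in all 12 single-library fits, lost the call on the difference with the block. The TOV21G response of LINC00941 was also not called with edgeR or DESeq2 (adjusted p = 0.0819 and 0.0978). To see whether replicate numbers pair libraries, the group mean of each gene was subtracted, and the remainders of control and ascites libraries were correlated over 12105 genes. Same numbers gave -0.038, 0.078 and 0.028 in CAOV3 and -0.200, -0.549 and 0.057 in TOV21G. Unlike numbers gave -0.117 to 0.091 in CAOV3 and -0.453 to 0.572 in TOV21G, so the numbers were not taken as pairs. The causes of these changes were not tested. With 3 libraries a group, unknown cultures and wide TOV21G replicates, small differences in TOV21G could be missed. All groups shared 1 estimate of the spread of a gene, so the tighter CAOV3 libraries also entered the TOV21G tests. TOV21G calls could therefore also be too many. With weights per line the TOV21G responses numbered 34 instead of 58, and those of CAOV3 422 instead of 256.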
